A study of Mus musculus with 9 samples.

Results

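The 10 genes described here encode the output arm of the Hippo pathway: the coactivators YAP (Yap1) and TAZ (Wwtr1), the DNA-binding factors Tead1, Tead2, Tead3 and Tead4 that carry them to the genome, the kinases Lats1 and Lats2 that hold them back, and the cofactors Vgll3 and Vgll4 that bind TEAD factors themselves. They were taken from the deposited gene table by symbol. All 10 were found among its 54532 genes, and all 10 passed the filter on low counts in every comparison. Their mRNAs were measured by RNA sequencing in lambdoidal junction tissue of C57BL/6J mouse embryos, the region where the maxillary and nasal prominences meet and fuse into the upper lip and primary palate. The stages were embryonic days 10.5 (E10.5) to 12.5 (E12.5) in steps of 1 day, and 9 libraries were made, 3 for every stage. Pooled wild-type, untreated embryos gave the RNA of a library, so that stage is what separates the groups. Litters and sexes within a pool are not described, and p-values measure the spread between pools.

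In the Hippo pathway, the kinases STK3 and STK4 with SAV1 activate the LATS kinases, which act together with MOB1 proteins. LATS kinases phosphorylate YAP and TAZ, which are then kept in the cytoplasm or degraded. Unphosphorylated YAP and TAZ enter the nucleus, bind TEAD factors and switch on genes of growth, adhesion and matrix. Loss of YAP and TAZ from neural crest cells disturbs development of the mouse face. RNA levels do not report phosphorylation or location of these proteins.

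The libraries held 16581009 to 20836804 counts, the most at E11.5. Levels are given as CPM, read counts scaled to the size of the library, and levels of different genes are compared only as CPM per kilobase (kb) of exon. E10.5 replicate 3 stood apart: across genes, its log2 deviation from the mean of the other 2 libraries of its stage had a Spearman correlation of -0.546 with GC content, against -0.26 to 0.274 in the libraries of the later stages. Mesenchyme markers (5 genes) summed to 785 to 1280 CPM in the E10.5 libraries, to 1830 to 1960 a day later and to 1860 to 2160 at E12.5, and epithelium markers (6 genes) to 372 to 675, 367 to 388 and 504 to 534 CPM. E10.5 replicate 3 had the lowest mesenchyme sum and the highest epithelium sum of its stage. Neuroepithelium markers (6 genes) summed to 238 to 329 CPM at E10.5 and only to 66.8 to 84.7 and 72.0 to 81.8 CPM afterwards. Endothelium markers (4 genes) summed to 76.5 to 232, 229 to 250 and 175 to 253 CPM and erythroid markers (4 genes) to 1820 to 2740, 3090 to 3430 and 3460 to 4510 CPM. Macrophage markers (3 genes) stayed at 11.3 to 16.5 CPM throughout. No marker was at 0 in all libraries.

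The genes were spread over 8 chromosomes, with Tead1 and Tead2 both on chromosome 7 and Tead4 and Vgll4 both on chromosome 6. In GRCm38 coordinates, Yap1 lay at chr9:7931999-8004596, Wwtr1 at chr3:57455649-57575910, Lats2 at chr14:57689662-57758388 and Vgll3 at chr16:65815257-65866368. RefSeq promoter windows, 250 bases before to 50 after the start site, were matched for 8 of the 10 genes, all but Tead1 and Tead4. The letters GGAATG, the core to which TEAD factors bind, were searched on both strands (CATTCC on the other). They were found in at least 1 window of 6 of these 8 genes: Yap1, Wwtr1, Tead3, Lats2, Vgll3 and Vgll4. Of all 26994 genes with a window, 16.6% held the motif, and so did 6 of 14 matched genes of the target list used below. A match is a description of the sequence and not a bound site. The stretches around the matches are shown because they include the 3 genes whose mRNA rose, with Ccn1, a classical YAP target, for comparison. Each is written 5′ to 3′ on the strand of its gene in GRCm38.p6, with the motif in capitals:
Vgll3, chr16:65815076-65815181, plus strand: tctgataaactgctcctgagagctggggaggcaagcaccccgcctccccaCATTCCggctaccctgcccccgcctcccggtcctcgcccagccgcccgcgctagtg
Wwtr1, chr3:57575991-57576096, minus strand: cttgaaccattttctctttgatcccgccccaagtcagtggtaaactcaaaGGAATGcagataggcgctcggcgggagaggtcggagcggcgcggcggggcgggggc
Lats2, chr14:57746104-57746169, minus strand: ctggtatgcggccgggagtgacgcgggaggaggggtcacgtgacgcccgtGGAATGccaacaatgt
Yap1, chr9:8004682-8004787, minus strand: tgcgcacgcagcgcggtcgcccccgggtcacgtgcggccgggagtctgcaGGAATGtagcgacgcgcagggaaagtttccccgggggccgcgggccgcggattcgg
Vgll4, chr6:114969230-114969335, minus strand: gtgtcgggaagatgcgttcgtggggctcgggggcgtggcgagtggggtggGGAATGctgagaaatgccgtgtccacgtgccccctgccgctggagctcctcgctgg
Tead3, chr17:28350659-28350773, minus strand: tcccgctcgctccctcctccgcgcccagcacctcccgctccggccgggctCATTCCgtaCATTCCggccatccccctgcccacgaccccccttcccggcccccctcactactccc
Ccn1, chr3:145650033-145650138, minus strand: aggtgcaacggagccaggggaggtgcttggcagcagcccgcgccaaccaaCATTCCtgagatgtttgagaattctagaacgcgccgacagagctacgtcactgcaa
The motif began 63 bases before the start site in Vgll3, 136 in Wwtr1, 141 in Yap1, 82 in Vgll4 and 103 in Ccn1. Tead3 held a pair of copies, 123 and 114 bases before the start of one of its transcripts. In Lats2 it lay 4 bases past the start site. The 3 genes that rose all held the motif, but so did Yap1, Tead3 and Vgll4, whose levels passed the threshold in no comparison of stages.

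Over the fusion period 3 of the 10 genes rose: Vgll3, Lats2 and Wwtr1. Vgll3 changed the most, with a 10.1-fold higher level at E12.5 than at E10.5. Lats2 rose 2.14-fold and Wwtr1 1.70-fold over the same span. Yap1, Lats1, Vgll4 and the 4 Tead genes passed the threshold in no comparison. In a test of any difference between the 3 stages on all 9 libraries, 3 of 10 genes passed an adjusted p of 0.05 (edgeR quasi-likelihood test, Benjamini-Hochberg over all genes), where 28.3% of all genes did: Vgll3 (adjusted p = 5.23e-06), Lats2 (adjusted p = 0.00042) and Wwtr1 (adjusted p = 0.0012).

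**Figure D1:**
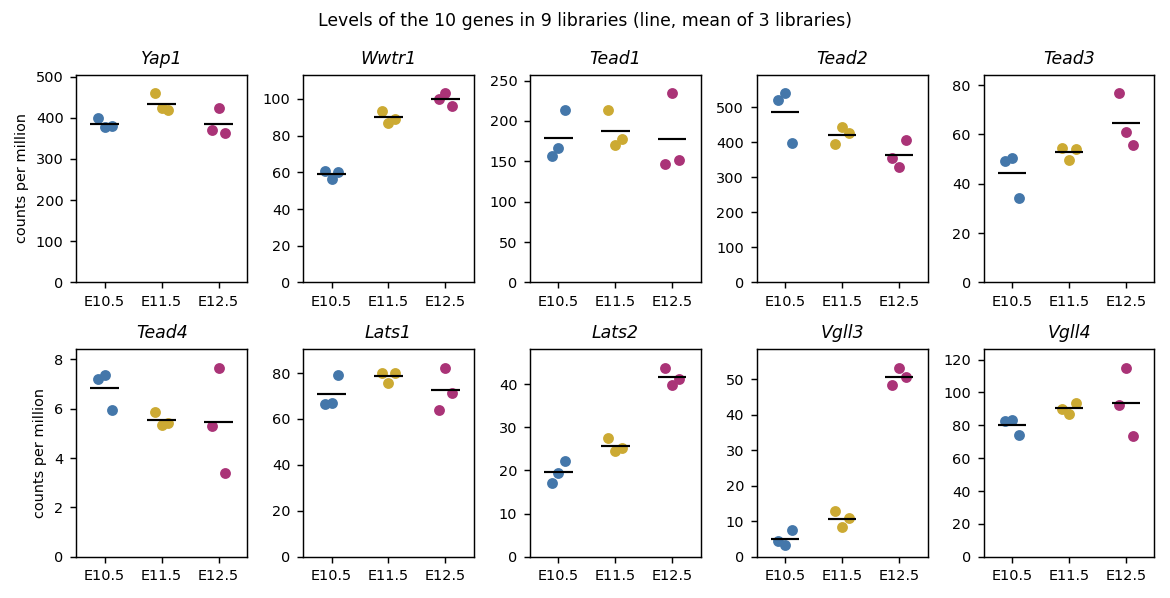
Level of each of the 10 genes in CPM (y axis, from 0, a scale of its own in each panel) in the 3 libraries of each stage (x axis). Points are libraries and lines are means of 3 libraries. Vgll3 sits at 3.19 to 12.9 CPM before E12.5 and at 48.3 to 53.2 CPM at E12.5, and Wwtr1 and Lats2 show no overlap between E10.5 and the later stages.

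The question of the first comparison was what differed at E11.5 from E10.5, when fusion is under way. Of the 10 genes, 1 was higher at an adjusted p of 0.05 or below and 0 were lower, where 6.19% of the 15708 genes tested were higher and 5.58% lower. With the study's added threshold, a log2 fold change of 1 or more in size, 0 of the 10 were higher (3.46% of all genes). At an unadjusted p under 0.05, 3 were higher (13.7% of all genes), of which 1 had that fold (4.58%), and 0 were lower (14.2%). DESeq2 called 2 higher (9% of all genes), 1 with that fold (3.99%), and 0 lower (8.47%). The median log2 fold change was 0.18 for the 10 genes and -0.03 for all genes.

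From E11.5 to E12.5, 2 of the 10 genes were higher, Lats2 and Vgll3 (7.61% of the 15808 genes tested), and 0 were lower (4.57%). Vgll3 alone met the added fold threshold (1 of 10, against 4.14% of all genes). From E10.5 to E12.5, the whole span, 3 of 10 were higher (14% of the 15899 genes tested) and 0 were lower (10.5%), and 2 of 10 met the fold threshold as well, Vgll3 and Lats2 (9.97%). At an unadjusted p under 0.05 and with DESeq2, 0 were lower in either comparison, where the shares of all genes were 13.3% and 7.41% in the second interval and 17.6% and 12.9% over the whole span. The 3 comparisons share libraries and are not independent of each other. Lack of overlap between the libraries of 2 stages, given below for single genes, was common. In E11.5 vs E10.5 it was seen in 6 of the 10 genes and 36.7% of all genes tested. In E12.5 vs E11.5 these were 4 of 10 and 35.3%, and in E12.5 vs E10.5 4 of 10 and 42.4%.

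**Figure D2:**
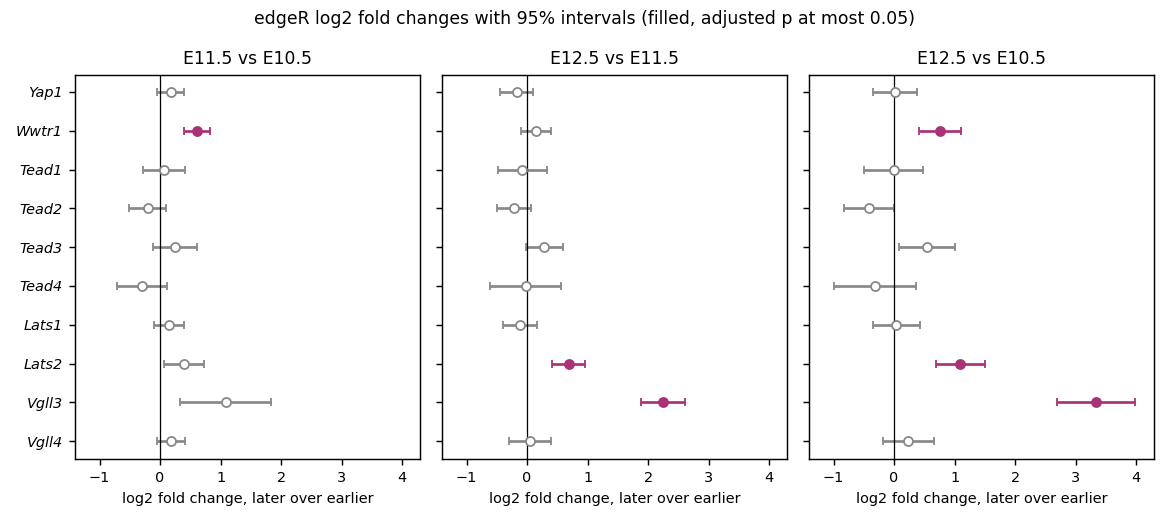
Log2 fold change of the 10 genes (x axis, later stage over earlier stage) with 95% intervals from edgeR, in 3 panels for the 3 pairs of stages. Filled points have an adjusted p of 0.05 or below. Vgll3 and Lats2 are filled in the panels of E12.5 and Wwtr1 in those against E10.5.

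Of the coactivators, Wwtr1 (TAZ) rose and Yap1 did not pass the threshold. Wwtr1 was at 60.8, 56.4 and 60.3 CPM in the E10.5 libraries, 93.7, 86.8 and 89.2 at E11.5 and 100, 103 and 96.2 at E12.5. Each stage lay above the one before without overlap. The step from E10.5 to E11.5 was 1.52-fold (log2 fold change 0.61, SE 0.095, adjusted p = 0.00722), and that from E11.5 to E12.5 was 1.11-fold (0.15, SE 0.11, adjusted p = 0.393). The call of the first step depended on single libraries, while its size changed little. Leaving out E11.5 replicate 1 gave an adjusted p of 0.0523, and leaving out its replicate 3 one of 0.0532, with log2 fold changes of 0.58 and 0.62. Over all single libraries left out, the log2 fold change was 0.57 to 0.64, with edgeR adjusted p of 4.05e-05 to 0.0532. Its whole-span log2 fold change was 0.76 (SE 0.157, adjusted p = 0.00534), and it passed without any single library, with adjusted p up to 0.039. In the first interval, the mesenchyme marker sum was higher and the neuroepithelium marker sum lower in every E11.5 library, as given above, and their part in the change was not tested. In such pools of tissue, more cells of a type and more RNA per cell cannot be told apart.

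Yap1, the more abundant coactivator mRNA per kb, was at 399, 378 and 380 CPM at E10.5, 459, 423 and 418 at E11.5 and 370, 424 and 363 at E12.5. All E11.5 libraries were above all E10.5 libraries, but the log2 fold change was 0.17 (SE 0.0949, adjusted p = 0.282). For the whole span it was 0.01, with a 95% interval from -0.36 to 0.37, so that changes of that size in either direction are within the error. Per kb, the ratio of Wwtr1 to Yap1 was 0.297 ± 0.00929 (SD, n = 3) at E10.5, then 0.402 ± 0.00975 and finally 0.503 ± 0.0278. The 3 stages did not overlap (two-sided exact permutation test over all assignments of libraries to stages, p = 0.00357, the smallest this design can give; adjusted p = 0.00833 over 7 ratios and shares). With the longest transcript as length, the means were 0.173, 0.233 and 0.292, so that the size of the ratio depends on the transcript model and its order over the stages does not. Both genes have a similar GC content, 43.9% and 45.2%.

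Among the TEAD factors, Tead2 had the highest level per kb at every stage. It was at 519, 539 and 398 CPM at E10.5, 394, 442 and 425 at E11.5 and 354, 330 and 405 at E12.5. E10.5 overlapped with both later stages through its replicate 3 alone, and E11.5 and E12.5 overlapped with each other. The whole-span log2 fold change was -0.41 (SE 0.187, adjusted p = 0.135). Without E10.5 replicate 3 it was -0.53 (adjusted p = 0.0297), and the first interval then gave -0.32 (adjusted p = 0.0027) in place of -0.20. The whole-span difference also passed with the GC trend of each library removed (-0.50, adjusted p = 0.0236) and in a fit of all 9 libraries (-0.42, adjusted p = 0.0485). Over all single libraries left out, it ranged from -0.53 to -0.33, with edgeR adjusted p up to 0.381.

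Tead1, the gene with the longest exon sequence of the 10, was at 157, 167 and 214 CPM at E10.5, 214, 170 and 177 at E11.5 and 147, 234 and 151 at E12.5. One library of each stage was far above the other two, and the log2 fold changes, 0.06, -0.08 and -0.01, were smaller than their SEs. Tead3 was at 49.1, 50.3 and 34.1 CPM at E10.5, 54.5, 49.6 and 54.0 at E11.5 and 76.6, 61.1 and 55.6 at E12.5. All E12.5 libraries were above all others. The whole-span log2 fold change was 0.54 (SE 0.207, adjusted p = 0.0801), and it passed in a fit of all 9 libraries (adjusted p = 0.0331) and with the GC trend removed (adjusted p = 0.0307). With single libraries left out it did not pass, at edgeR adjusted p of 0.0872 to 0.297. Tead4, best known from the trophectoderm of the early embryo, had the lowest level per kb of the TEAD factors, at 7.19, 7.37 and 5.95 CPM at E10.5, 5.86, 5.34 and 5.43 at E11.5 and 5.30, 7.66 and 3.40 at E12.5. All E11.5 libraries were below all E10.5 libraries, but the log2 fold change of -0.30 (SE 0.176) had an adjusted p of 0.31.

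Per kb, Tead2 made up 82.1% ± 2.95 (SD, n = 3) of the summed level of the 4 Tead genes at E10.5, then 79.1% ± 2.48 and finally 75.7% ± 4.92 (exact permutation test, p = 0.179, adjusted p = 0.25). The share of Tead3 rose from 5.35% ± 0.474 to 7.08% ± 0.533 and 9.65% ± 1.91. Its 3 stages did not overlap (exact permutation p = 0.00357, adjusted p = 0.00833). Tead1 made up 8.94 to 14.9% at E10.5 and 10.6 to 17.7% at E12.5 (exact permutation p = 0.686), and Tead4 1.55%, 1.39% and 1.53% (exact permutation p = 0.782). Tead2 and Tead3 have nearly the same GC content, 57.9% and 58.1%.

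**Figure D3:**
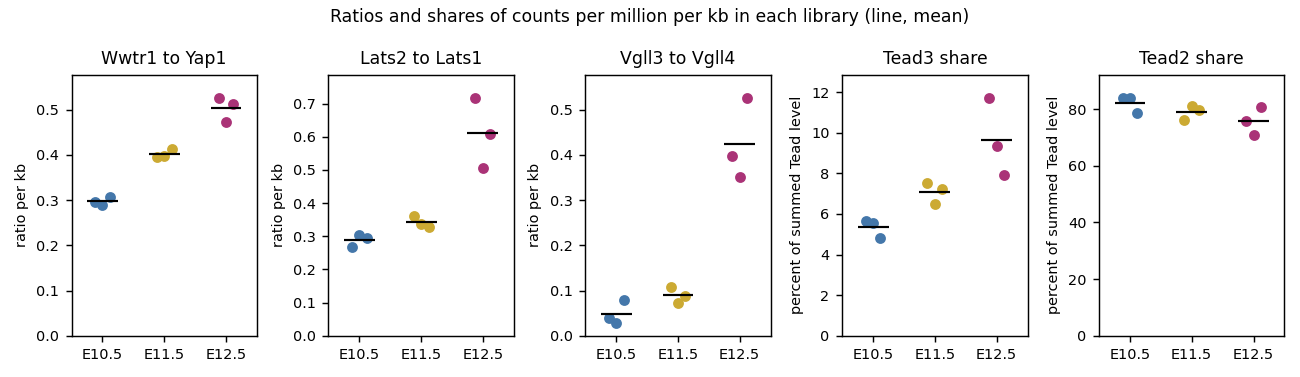
Ratios (first 3 panels) and shares of the summed Tead level in percent (last 2 panels), from CPM per kb in each library, y axes from 0, by stage. Points are libraries and lines are means of 3. The ratio of Wwtr1 to Yap1 rises from 0.289 to 0.307 at E10.5 to 0.472 to 0.525 at E12.5, that of Lats2 to Lats1 from 0.267 to 0.305 to 0.506 to 0.716, and the Tead3 share from 4.80 to 5.67% to 7.90 to 11.7%.

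Of the LATS kinases, Lats2 rose and Lats1 did not pass. Lats2 was at 17.0, 19.5 and 22.3 CPM at E10.5, 27.6, 24.4 and 25.2 at E11.5 and 43.8, 39.8 and 41.3 at E12.5. No stage overlapped with another. Its log2 fold change was 0.40 (SE 0.142, adjusted p = 0.114) in the first interval, 0.69 (SE 0.123, adjusted p = 0.00506) in the second and 1.09 (SE 0.183, adjusted p = 0.00162) over the whole span. The first interval passed without E10.5 replicate 3 (0.50, adjusted p = 0.00328), and the second missed the threshold without E11.5 replicate 2 (0.63, adjusted p = 0.0529). Without E10.5 replicate 1 the whole-span log2 fold change was 0.99, below the added fold threshold. Lats2 is itself a known target of YAP and TAZ.

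The level of Lats2 carries an uncertainty of annotation. In the GENCODE vM21 models, 42.39% of its exon bases lie within exons of Gm49361 (chr14:57642077-57746103) on the same strand, which had 1 count over the 9 libraries. How reads in both genes were treated is not given in the sources used here, so the level of Lats2 may be too low, while the overlap is the same in all libraries. Of the other genes, Yap1 shares 1.25% and Tead2 0.27% of exon bases with a gene on the opposite strand. Lats1 was at 66.6, 67.0 and 79.3 CPM at E10.5, 80.1, 75.5 and 80.2 at E11.5 and 64.0, 82.3 and 71.1 at E12.5, with a whole-span log2 fold change of 0.04 (95% interval -0.34 to 0.42). In the first interval it was 0.15 (adjusted p = 0.41), and 0.24 (adjusted p = 0.0169) without E10.5 replicate 3. The ratio of Lats2 to Lats1 per kb was 0.289 ± 0.0193 (SD, n = 3), 0.343 ± 0.0164 and 0.610 ± 0.105 over the stages (exact permutation p = 0.00357, adjusted p = 0.00833). Without the overlapped bases in the length of Lats2, the means were 0.501, 0.595 and 1.06. Thus Lats2 was below Lats1 per kb at E10.5 and E11.5 on every length used, while at E12.5 the order depended on the length.

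Vgll3, a cofactor that binds TEAD factors through a TONDU domain, was the gene that changed most. Its levels were 4.34, 3.19 and 7.62 CPM at E10.5, 12.9, 8.37 and 10.9 at E11.5 and 48.3, 53.2 and 50.6 at E12.5. The stages did not overlap, and the lowest E12.5 library was several times the highest E11.5 library. The step from E11.5 to E12.5 was 4.73-fold (log2 fold change 2.24, SE 0.166, adjusted p = 3.92e-05), and Vgll3 ranked 14 by p among the 15808 genes tested. Over the whole span the log2 fold change was 3.34 (SE 0.295, adjusted p = 2.37e-05). Both held without any single library, at 2.07 to 2.38 and 3.09 to 3.76.

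In the first interval, the log2 fold change of Vgll3 was 1.09 (SE 0.326, adjusted p = 0.0696). This call turned on the choice of analysis. It passed with DESeq2 (1.09, adjusted p = 0.0124), with all genes of at least 1 count (1.09, adjusted p = 0.0106), in a fit of all 9 libraries (1.08, adjusted p = 0.0214) and with the GC trend removed (1.14, adjusted p = 0.00995). Without E10.5 replicate 3, where Vgll3 was highest of its stage, it was 1.51 (adjusted p = 0.000202). Over all single libraries left out, it ranged from 0.84 to 1.51, with edgeR adjusted p up to 0.239.

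In the interval where Vgll3 rose most, the mesenchyme marker sum changed little (1830 to 1960 CPM before and 1860 to 2160 after), and the epithelium marker sum was 367 to 388 CPM at E11.5 and 504 to 534 at E12.5. Most of that difference was Krt5, a keratin of basal epithelium, which went from 39.9, 24.8 and 38.8 CPM to 153, 152 and 149 CPM (log2 fold change 2.13, adjusted p = 5.77e-05). Epcam, Cdh1 and Trp63 of the same list did not pass (adjusted p = 0.209, 0.865 and 0.539). The part of any cell type in the rise of Vgll3 was not tested.

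Vgll4, which competes with YAP and TAZ for TEAD factors, was at 82.4, 83.4 and 74.0 CPM at E10.5, 90.1, 87.1 and 93.7 at E11.5 and 92.5, 115 and 73.2 at E12.5. E12.5 spanned the whole range of the other stages. Its log2 fold changes were 0.18, 0.05 and 0.24, with adjusted p of 0.273, 0.871 and 0.412. The ratio of Vgll3 to Vgll4 per kb was 0.0491 ± 0.0258 (SD, n = 3) at E10.5, then 0.0898 ± 0.0178 and finally 0.425 ± 0.0899 (exact permutation p = 0.00714, adjusted p = 0.0125). E10.5 and E11.5 overlapped, since E10.5 replicate 3 had a ratio of 0.0782 and E11.5 replicate 2 one of 0.0729. With the longest transcript as length the means were 0.0203, 0.0371 and 0.175, so that Vgll4 stayed above Vgll3 at every stage with both lengths. The GC contents of the pair differ, 40.7% for Vgll3 and 56.1% for Vgll4.

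In E10.5 replicate 3 the GC-rich genes stood apart from the rest. The 4 genes with a GC content of 56.1 to 58.1%, Vgll4, Tead2, Tead3 and Tead4, were lowest of their stage in this library, by 0.16 to 0.54 on the log2 scale against the mean of the other 2 libraries. Vgll3, Lats1, Tead1 and Lats2, at 40.7 to 52.2% GC, were highest there, by 1.02, 0.25, 0.40 and 0.29. Wwtr1 (0.04) and Yap1 (-0.03) were in the middle, so that the values of the coactivators depended little on this library.

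**Figure D4:**
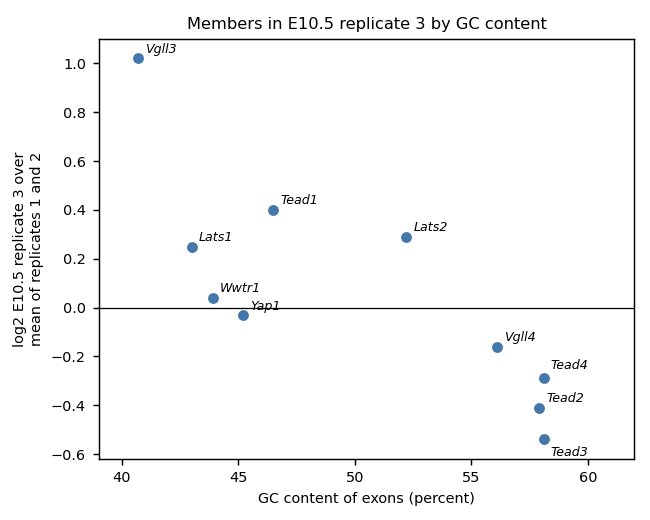
Each point is 1 of the 10 genes. The x axis is the GC content, in percent, of the exons of its longest transcript. The y axis is the log2 ratio of its level in E10.5 replicate 3 to the mean of replicates 1 and 2. The line marks 0. The 4 genes above 56% GC lie between -0.54 and -0.16, and Vgll3, with the lowest GC content, lies at 1.02.

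The order of levels per kb was headed by Tead2 and Yap1 at all 3 stages, at 101 and 41.7 CPM per kb at E10.5 and 75.8 and 41.7 at E12.5, without overlap between them. At E10.5 they were followed by Vgll4 (14.8), Tead1 (13.2) and Wwtr1 (12.4), which are neighbours whose libraries overlap, then Lats1 (9.73), Tead3 (6.63), Lats2 (2.81), Tead4 (1.90) and Vgll3 (0.711 CPM per kb). At E11.5, Wwtr1 (18.8) was above Vgll4 (16.7), and Tead4 (1.54) and Vgll3 (1.51) overlapped at the bottom. At E12.5, Wwtr1 (20.9), Vgll4 (17.3), Tead1 (13.1), Lats1 (9.93) and Tead3 (9.60) each overlapped with the next, while Vgll3 (7.14) and Lats2 (5.97) lay apart from each other and above Tead4 (1.51 CPM per kb). With the longest transcript as length, Tead2 and Yap1 kept their places, Vgll4 came before Wwtr1 at every stage, Tead3 moved up to places 5 and 6, and Lats2 came before Vgll3 at E12.5.

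The patterns most like those of the 10 genes were sought as the smallest root mean square difference of centred log2 CPM over the 9 libraries, among 14513 other genes. For Vgll3 these were Bmp6, a bone morphogenetic protein ligand (0.218, against a median of 1.47 over all genes), Gm8773 (0.242) and Elf5, an epithelial transcription factor (0.264). Bmp6 averaged 1.56, 2.93 and 14.8 CPM over the stages and Elf5 1.65, 3.84 and 13.4 CPM. The nearest to Wwtr1 were Lrrc28 (0.07), Il4 (0.0815) and Ifnar2 (0.0835), and to Lats2 AC126457.1 (0.089), Rab33b (0.106) and Zbtb8a (0.112). Aurkb, a mitotic kinase, was nearest to Tead2 (0.0525), at 124, 110 and 91.3 CPM, followed by Acads (0.0624) and Dhx16 (0.0644). The other members had as nearest genes Vsp35l for Yap1 (0.0492), Spag9 for Tead1 (0.0688), Lrp10 for Tead3 (0.0518), Celsr1 for Tead4 (0.0873), Ammecr1l for Lats1 (0.0458) and Ttc17 for Vgll4 (0.0632). For genes that differ little between stages, this likeness rests on differences between libraries.

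Of 21 genes known as targets of YAP, TAZ and TEAD, 20 were tested, and the direction was mixed. In the first interval 5 of 20 were higher and 1 was lower (6.19% and 5.58% of all genes), with a median log2 fold change of 0.08 against -0.03 over all genes. The largest changes were those of Myof, a membrane repair ferlin (log2 fold change 1.92, SE 0.301), Tgfb2, a TGF-beta ligand (1.90, SE 0.183) and Rbms3, an RNA-binding protein (1.89, SE 0.148). Tgfb2 was at 27.5, 17.4 and 19.1 CPM at E10.5 and 84.5, 70.8 and 81.9 at E11.5. Axl (0.85) and Igfbp3 (0.68) also rose, while Nuak2, an AMPK-related kinase, fell by 1.66 on the log2 scale (adjusted p = 0.00306 by edgeR). Without E10.5 replicate 3, 7 targets were higher and 4 lower. Without E11.5 replicate 1, 3 were higher and 1 lower.

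The matricellular genes Ccn1 and Ccn2, the most widely used readouts of YAP activity, followed another course. Ccn2 was at 10.1, 10.4 and 15.5 CPM at E10.5, 6.03, 7.12 and 9.17 at E11.5 and 14.6, 17.5 and 21.5 at E12.5. Its log2 fold change was -0.69 (adjusted p = 0.104) in the first interval and 1.26 (SE 0.203, adjusted p = 0.00295) in the second. Ccn1 was at 25.4, 31.2 and 23.8, then 23.7, 17.7 and 22.1, then 45.6, 27.7 and 30.9 CPM, with log2 fold changes of -0.34 (adjusted p = 0.221) and 0.71 (adjusted p = 0.0376). Neither passed over the whole span (adjusted p = 0.109 for Ccn2 and 0.245 for Ccn1).

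In the second interval 4 targets were higher and 1 lower (7.61% and 4.57% of all genes), with a median log2 fold change of 0.25 against 0.02 over all genes. Beside Ccn2 and Ccn1, Igfbp3 (0.98, adjusted p = 0.00046) and Axl (0.49, adjusted p = 0.0257) rose, and Dock5, an exchange factor for Rac, fell by 0.80 on the log2 scale (adjusted p = 0.0172). The count of higher targets was 2 without E11.5 replicate 1, 2 or 3 or without E12.5 replicate 1. Dock5 was lost without E11.5 replicate 3 or E12.5 replicate 1, with 0 lower, and 2 targets were lower without E12.5 replicate 2. Over the whole span 5 were higher and 1 lower (14% and 10.5% of all genes), with a median of 0.37 against -0.01. Tgfb2 (2.31), Rbms3 (2.30), Myof (2.18), Igfbp3 (1.67) and Axl (1.35) rose and Nuak2 fell by 2.07 on the log2 scale. Without E10.5 replicate 3 there were 9 higher and 2 lower.

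**Figure D5:**
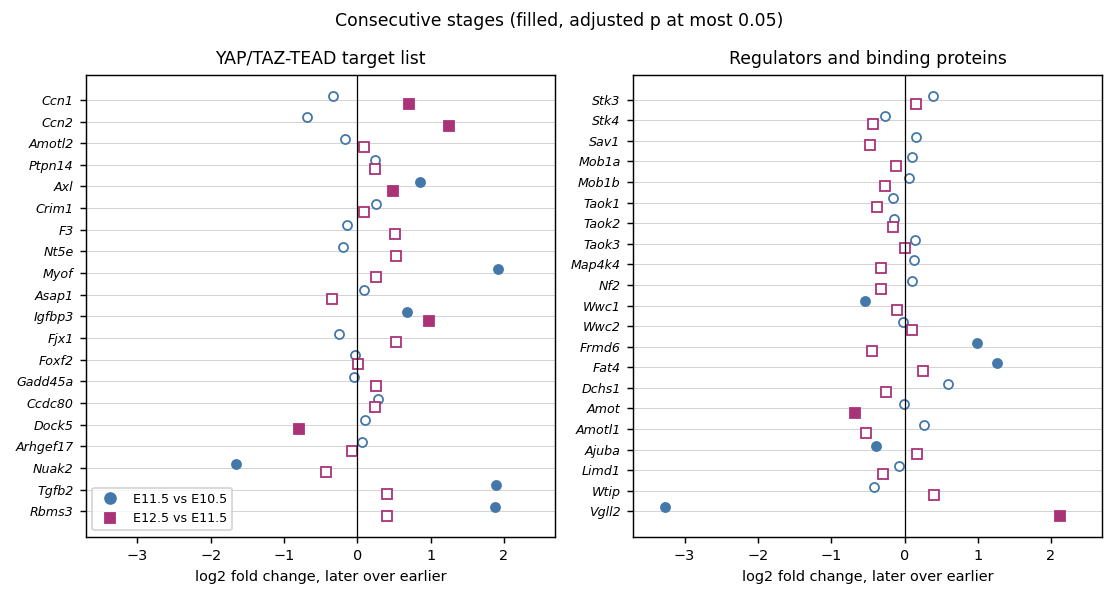
Log2 fold change (x axis, later over earlier stage) of the 20 targets (left) and 21 regulators (right) tested, for E11.5 vs E10.5 (circles) and E12.5 vs E11.5 (squares). Filled symbols have an adjusted p of 0.05 or below. Ccn1 and Ccn2 have open circles left of 0 and filled squares right of it, and Vgll2 has filled symbols at -3.27 and 2.12.

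Of 22 upstream regulators and binding proteins, 21 were tested, and most passed in no comparison. Their median log2 fold change was 0.07 in the first interval, where that of all genes was -0.03. It was -0.25 in the second interval (0.02 over all genes) and -0.21 over the whole span (-0.01). The kinase cassette (Stk3, Stk4, Sav1, 2 Mob1 genes, 3 Taok genes and Map4k4) had 0 of 9 genes past the threshold in either consecutive step. Of all genes, 6.19% were higher and 5.58% lower in the first step, and 7.61% and 4.57% in the second. At an unadjusted p under 0.05 there were 0 in the first, where 13.7% of all genes were higher and 14.2% lower. In the second 4 were lower, where 13.3% of all genes were lower. DESeq2 called 0 in the first (9% of all genes higher, 8.47% lower) and 1 lower in the second (7.41%). The median log2 fold change of the cassette was 0.10 in the first step (-0.03 over all genes) and -0.27 in the second (0.02). Whether the cassette differed from all genes was not tested. Over the whole span Stk4, the kinase MST1, fell by 0.69 on the log2 scale (adjusted p = 0.0445). In the first interval 2 of 21 regulators were higher and 3 lower, against 6.19% and 5.58% of all genes. Fat4, a giant protocadherin upstream of the pathway, rose by 1.26 (SE 0.338, adjusted p = 0.0498) and Frmd6, a FERM-domain protein, by 1.00 (SE 0.144, adjusted p = 0.00538). The scaffold Wwc1 fell by 0.54 and the LIM protein Ajuba by 0.39 on the log2 scale (adjusted p = 0.0242 and 0.0307 by edgeR). These counts were 8 and 5 without E10.5 replicate 3, and 1 and 1 without E10.5 replicate 2 or any 1 of the E11.5 libraries.

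Also lower in the first interval was Vgll2, the TEAD cofactor known from skeletal muscle and pharyngeal arches. It was at 7.55, 7.49 and 10.4 CPM at E10.5, 0.484, 1.11 and 1.00 at E11.5 and 4.85, 2.80 and 3.82 at E12.5. The stages did not overlap. It fell by 3.27 on the log2 scale (SE 0.321, adjusted p = 0.00153) and then rose by 2.12 (SE 0.348, adjusted p = 0.00326). The level at E12.5 was still below that at E10.5, by a log2 fold change of -1.14 (edgeR adjusted p = 0.0143). The muscle marker sum was 8.67 to 20.7 CPM at E10.5, 3.60 to 4.66 CPM a day later and 2.59 to 3.61 CPM at E12.5, and its members differed. Des was lower at each later stage (log2 fold change -2.02 in the second interval, adjusted p = 0.00461). Myod1, Myog and Actc1 were higher in every E12.5 library than in every E11.5 library, at 0 to 0.161 and then 0.338 to 0.377 CPM for Myod1, 0 to 0.108 and then 0.216 to 1.07 CPM for Myog and 0.0481 to 0.211 and then 0.417 to 0.917 CPM for Actc1, counts too low to be tested. The remaining marker, Myf5, overlapped between these stages, at 0.385 to 0.699 and then 0.282 to 0.596 CPM. Its log2 fold change was -0.41 (adjusted p = 0.602 by edgeR). The part of these muscle markers in the course of Vgll2 was not tested. In the second interval, beside Vgll2, the angiomotin Amot fell by 0.68 (adjusted p = 0.023), and 1 regulator was higher and 1 lower (7.61% and 4.57% of all genes). The number lower was 11 without E12.5 replicate 2 and 0 without E12.5 replicate 1 or any 1 of the E11.5 libraries, and the number higher was 2 without E12.5 replicate 2 or replicate 3. The share of all genes lower was not counted without single libraries, so these counts have no background to be set against. Over the whole span Fat4 was higher (1.52, adjusted p = 0.0132), and Vgll2, Stk4 and Wwc1 (-0.63) were lower (14% of all genes were higher and 10.5% lower). Leaving out single libraries gave 0 to 2 higher (2 without E10.5 replicate 3, 0 without E12.5 replicate 1 or 2) and 0 to 6 lower (6 without E12.5 replicate 2, 1 without E10.5 replicate 2 or E12.5 replicate 1, and 0 without E12.5 replicate 3).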

How the data were processed

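Libraries from RNA of 9 pools of mouse embryos, 3 per stage, were made with an Illumina TruSeq RNA kit. They were sequenced on an Illumina NovaSeq instrument. The authors aligned reads to GRCm38/mm10 with HISAT2 2.0.5 and deposited raw counts per gene from featureCounts, whose strand and ambiguity settings are not given in the sources used here. The FPKM columns and the study's own fold changes and p-values in the same table were not used.

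Each pair of stages was compared on its 6 libraries with edgeR 4.0.16 in R 4.3.3 (filterByExpr, TMM, quasi-likelihood test, Benjamini-Hochberg over all genes tested), and the 3 stages on all 9. Ratios and shares were compared by exact permutation on log2 ratios and log2 odds. Alternatives were DESeq2 1.42.0, other scalings and filters, a fit of all 9 libraries, a replicate block, removal of GC trends, other gene lengths and leaving out each library. The length of Lats2 without overlapped bases was added after seeing the data. The script was checked on simulated counts. The 10 genes, the lists and the markers were chosen with earlier results of these data known. Named genes are the 10, the 3 largest changes past an adjusted p of 0.05 in each list and comparison and the 3 most similar genes of each member. Krt5, Epcam, Cdh1 and Trp63, and list genes beyond those 3, were named after their values were seen. Promoters came from RefSeq (GRCm38.p6) and exon overlaps from GENCODE vM21.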

Additional observations from a re-analysis of the deposited data

How the results depend on the processing

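The rise of Vgll3 and Lats2 after E11.5, and of Wwtr1, Lats2 and Vgll3 over the whole span, passed under every scaling, filter, tool, block and GC setting tried. In E11.5 vs E10.5, where 1 gene was higher, 2 were with DESeq2, all genes of at least 1 count, a fit of all 9 libraries, the replicate block, and the block with the GC trend removed (Wwtr1 and Vgll3), and 3 with the GC trend removed alone (with Tead3). With the added fold threshold, 0 became 1 under these 6 settings (Vgll3). Leaving out 1 library gave 0 to 4 higher, 0 to 1 lower and 0 to 1 with the added fold. Shares of all genes were not counted for fits without a library. Counts of members, targets and regulators from such fits therefore have no background beside them. In E12.5 vs E11.5 leaving out 1 library gave 1 to 2 higher. In E12.5 vs E10.5, 0 lower became 1 (Tead2) in the fit of all 9 libraries, with the GC trend removed and with the block and the GC trend removed, and leaving out 1 library gave 0 to 1 lower and 1 to 2 higher with the added fold. Deviations of libraries with the same number correlated at -0.151 to 0.22, and not each library correlated best with its own number. This does not settle whether the numbers pair libraries. In the main fits the numbers only name them. The replicate block brought Vgll3 past the threshold in the first interval (1.15, adjusted p = 0.0423 by edgeR) and Tead3 over the whole span (0.55, adjusted p = 0.0366), and changed no other call of the 10 genes. The cause of these shifts was not tested.

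Log2 fold changes near 0 changed sign without passing the threshold. In E12.5 vs E11.5 these were Tead4 (0.0235 with upper quartile scaling) and Vgll4 (-0.0418 with the GC trend removed, -0.0678 with the replicate block as well). In E12.5 vs E10.5 they were Yap1 (-0.0077 with DESeq2 and with its size factors) and Tead1 (0.0483 with upper quartile scaling, 0.0025 with all genes of at least 1 count, 0.0055 with at least 10 counts in every library, 0.0169 with the GC trend removed). Leaving out single libraries gave log2 fold changes of -0.0407 to 0.213 (Tead1, first interval), -0.338 to 0.0388 (Tead1), -0.358 to 0.212 (Tead4) and -0.135 to 0.184 (Vgll4) in the second, and -0.0632 to 0.0477 (Yap1), -0.256 to 0.144 (Tead1) and -0.0593 to 0.131 (Lats1) over the whole span. The log2 odds of the Tead4 share changed by -0.412 to 0.237 when single libraries were left out. With 3 pools a stage, changes of the less variable genes smaller than their intervals cannot be seen.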

Other observations

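In E12.5 replicate 2, 7 of the 10 genes were highest of their stage, by up to 0.82 on the log2 scale against the mean of the other 2 libraries (Tead4), and Lats2 and Tead2 were lowest. Among the genes left untested for low counts, Vgll1 was at 0 to 0.529 CPM and Ankrd1, a YAP target of heart and muscle, at 0 to 0.162 CPM, with no count in any E10.5 library.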
